A study of Mus musculus with 16 samples.

Results

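Natural killer (NK) cells of the liver-draining lymph nodes (LN) were followed in mice fed 3,5-diethoxycarbonyl-1,4-dihydrocollidine (DDC), a compound in the chow that causes cholestasis with inflammation around the bile ducts. The cells were chosen by their own transcripts. A cell needed at least 1 unique molecular identifier (UMI, the count of 1 captured RNA molecule) of Ncr1, at least 1 of Klre1 or Klrb1c, at most 1 of Cd3d, Cd3e and Cd3g together, and 0 of Cd79a. Of 19543 cells with at least 1000 RNA UMIs, at least 500 genes and at most 10% mitochondrial UMIs, 633 met this rule. The D0 library held 380 of them, the D5 library 112 and the D19 library 141.

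The 3 libraries were made by CITE-seq, which counts RNA and antibody-bound surface proteins in the same cell, from male C57BL/6J mice aged 6 to 12 weeks. D0 mice had received no DDC, and D5 and D19 mice had eaten chow with 0.1% DDC for 5 and 19 days. The library titled D5 was called D6 in its description, so the day is uncertain by 1. Each library came from pooled hepatoduodenal and celiac LN of a number of mice that was not stated, and sorted fractions (all living cells, CD45+ CD11c-, CD45+ CD11c+, Pdpn+ and CD45- Pdpn-) had been mixed in equal parts, so that shares of cells are partly set by the sort. With 1 library per day there is no replicate for a comparison between days, no test was made there, and day cannot be told apart from library. Intervals below are exact 95% intervals that cover counting error only, and UMIs of 1 cell are not independent of each other.

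NK cells are innate lymphocytes that kill infected, stressed or transformed cells without a rearranged antigen receptor. They store perforin and granzymes in granules, weigh signals from activating receptors against inhibitory ones such as most, but not all, of the Ly49 family, and release cytokines such as interferon gamma. In mice they mature from CD27-high cells to CD11b-high cells, and T-bet and Eomes, transcription factors of the T-box family, direct this course. In a resting LN they are a minor population, which dendritic cells can activate.

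The label was checked against genes that the rule did not use. Of 16 further NK cell genes, all had at least 30 UMIs over each pair of libraries. Because 7076 genes in all passed that limit for D0 and D19, it does not by itself mark NK cells. By the size rule given further on, 8 of the 16 were lower at D19 than at D0 and 0 higher. Their median log2 change was -0.46, against -0.15 for all genes. At D19 against D5, 5 were lower and 0 higher. Ccl5 stood at 10716, 8278 and 11282 UMIs per 1000000 RNA UMIs of the NK cells (CPM) at D0, D5 and D19, Tyrobp, a signalling adaptor of activating receptors, at 2659, 2223 and 1497, and Klrd1 (CD94) at 878, 1066 and 1112. Eomes, which separates NK cells from type 1 innate lymphoid cells (ILC1), was present at 225, 193 and 126 CPM. An Eomes UMI was found in 219 of 380, 56 of 112 and 46 of 141 NK cells, at unequal depth. The summed level does not class single cells, and whether ILC1 were among them was not tested. The 14 listed T cell genes summed to 1072, 1001 and 825 CPM. Of these Cd5 and Cd6 had at most 1 UMI per library, and Trbc2 stood at 318, 368 and 285 CPM. None of the 7 listed ILC3 genes reached 30 UMIs over any pair of libraries. Trbc1, whose locus is transcribed in NK cells without a rearranged receptor, was present at 476, 391 and 332 CPM. The CD3 tag, which the rule did not use, had a median of 2, 3 and 1 UMIs on NK cells against 75, 89 and 36 on cytotoxic T cells of the same libraries.

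The rule had a sharp edge. Of the NK cells, 57, 18 and 45 held exactly 1 Ncr1 UMI, and 38, 10 and 16 held 1 Cd3 UMI. Just outside, 14, 7 and 5 cells had 2 Cd3 UMIs, 45, 9 and 18 had more, and 89, 35 and 81 lacked only Ncr1. NK cells carried a median of 4953, 5307.5 and 3728 RNA UMIs, and the libraries held 45317389, 47653941 and 32013882 RNA UMIs in all, so the D19 cells were read least deeply. The libraries shared 9 to 12 cell barcodes per pair, and none was an NK cell in both.

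The sequences that carry the findings are of 2 kinds. The first are the antibody tags that were read to count proteins, of which CD11b divides the NK cells further on and CD3 and CD8a check their identity; each tag is 15 bases, shown in capitals because every base is the tag, and had the same sequence in all 3 libraries.
CD11b tag: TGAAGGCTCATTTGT
CD3 tag: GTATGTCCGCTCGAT
CD8a tag: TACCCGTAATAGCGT

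The second are the promoter windows of 4 granule genes that were all lower at D19, taken from RefSeq (GRCm38.p6, the build mm10 of the deposited files). Each has 300 bases, read 5′ to 3′ along the gene, across the annotated start. Capitals mark letters that Runx factors (TGTGGT, on either strand, so also ACCACA) or T-box factors (GGTGTGA, also TCACACC) are known to bind, 2 factor families of NK cells.
Gzma, chr13:113100932-113101231, minus strand: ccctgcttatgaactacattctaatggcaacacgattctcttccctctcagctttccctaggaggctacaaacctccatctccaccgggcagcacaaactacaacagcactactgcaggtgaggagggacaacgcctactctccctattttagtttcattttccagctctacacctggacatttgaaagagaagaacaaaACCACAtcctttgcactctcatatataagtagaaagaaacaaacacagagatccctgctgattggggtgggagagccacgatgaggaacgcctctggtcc
Gzmb, chr14:56262285-56262584, minus strand: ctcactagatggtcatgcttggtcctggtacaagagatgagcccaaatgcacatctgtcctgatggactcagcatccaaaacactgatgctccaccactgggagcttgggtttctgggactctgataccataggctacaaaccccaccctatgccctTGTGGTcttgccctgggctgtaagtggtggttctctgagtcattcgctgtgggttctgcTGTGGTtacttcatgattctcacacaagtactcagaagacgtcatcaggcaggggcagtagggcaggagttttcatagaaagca
Prf1, chr10:61297586-61297885, plus strand: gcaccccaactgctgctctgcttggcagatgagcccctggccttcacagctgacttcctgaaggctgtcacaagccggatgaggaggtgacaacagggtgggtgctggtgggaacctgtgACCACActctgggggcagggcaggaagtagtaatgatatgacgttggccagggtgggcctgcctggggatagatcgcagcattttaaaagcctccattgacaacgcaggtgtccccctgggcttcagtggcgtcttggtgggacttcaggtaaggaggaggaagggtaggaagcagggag
Nkg7, chr7:43436888-43437187, plus strand: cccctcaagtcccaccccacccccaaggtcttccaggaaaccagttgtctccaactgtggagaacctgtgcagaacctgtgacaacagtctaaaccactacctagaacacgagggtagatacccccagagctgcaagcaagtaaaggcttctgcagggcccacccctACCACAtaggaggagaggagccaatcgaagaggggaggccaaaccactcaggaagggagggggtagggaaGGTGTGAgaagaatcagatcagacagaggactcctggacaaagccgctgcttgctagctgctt

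The Runx letters were in all 4 windows, with 2 matches in Gzmb and 1 in each of the others, first at -50 from the start in Gzma, -93 in Gzmb, -130 in Prf1 and -83 in Nkg7, counted from the start that each window was built on, which for Prf1 lies inside the gene's listed extent. These windows were chosen because their genes were lower. Gzmm and Fasl, genes of killing that were also lower at D19, were not searched, so the 4 windows do not stand for all such genes. Of other windows searched, those of Klra4, Klra8, Eomes, Tbx21 and Itgam, all lower at D19, had 0 matches. That of Cma1, also lower, had 1, and so had 1 of the 2 windows of Klre1. That of Il7r, which was higher, had 1 and those of Ncr1, which was not past 1.5-fold, 2. They were in 5506 of 32851 promoter windows of the same length (16.8%). The T-box letters were only in the Nkg7 window, at -13, and in 1307 of all windows (3.98%), and no match overlapped another. A match describes letters and not a bound site.

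NK cells were a larger share of the D0 library than of the later ones. They were 5.81% of the cells kept at D0 (95% interval 5.25 to 6.40), 1.79% at D5 (1.48 to 2.15) and 2.09% at D19 (1.76 to 2.46). Among NK, T and B cells alone they were 7.69%, 2.38% and 3.05%. Which sorted fractions these cells came from is not known, so this share may be partly set by the sort as well. The D0 share lay above both others beyond counting error, and the intervals of D5 and D19 overlapped. Depth enters the rule: when every cell was first thinned to 1000 UMIs the shares were 2.49%, 0.864% and 0.666%, so that D19 was no longer above D5. Fewer NK cells and more of the other cells cannot be told apart in a share.

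**Figure D1:**
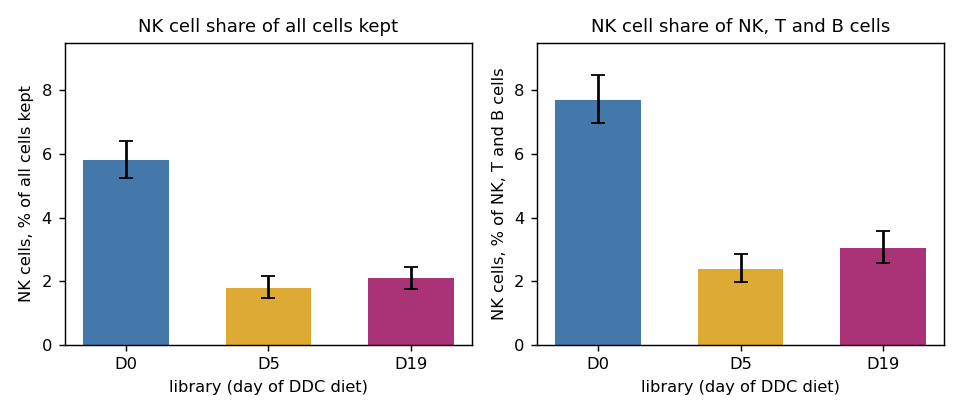
Share of NK cells in the 3 LN libraries, as a percent of all cells kept (left) and of NK, T and B cells together (right), with exact 95% intervals of counting error. The D0 bars, 5.81% and 7.69%, stand above the D5 and D19 bars in both panels.

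Levels of single genes were compared as UMIs summed over the NK cells of a library, on the scale log2 of CPM + 10, which understates changes of low genes. A gene was compared with at least 30 UMIs over 2 libraries and is called higher or lower here when it was past 1.5-fold, a rule of size and not a test. Between D0 and D5, 501 of 7212 genes were higher at D5 (6.95%) and 351 lower (4.87%). Between D0 and D19, 366 of 7076 were higher at D19 (5.17%) and 1240 lower (17.5%), and between D5 and D19, 197 of 4937 were higher (3.99%) and 888 lower (18.0%). These comparisons share libraries. With trimmed mean (TMM) scaling the counts were 326 higher and 501 lower at D5 against D0, 507 and 1003 at D19 against D0, and 401 and 442 at D19 against D5. The median change of all genes was 0.03, -0.15 and -0.19 log2 for D5 against D0, D19 against D0 and D19 against D5, and -0.06, -0.08 and -0.02 with TMM. The percentages of all genes are the level against which the counts in gene groups below are to be read.

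The granule genes were lower at D19. Of 12 compared genes of killing (14 listed), 6 were past 1.5-fold lower at D19 than at D0 and 0 higher, with a median log2 change of -0.65. Gzma (granzyme A, chr13:113093824-113100981), a protease that enters the target cell, stood at 3182 CPM at D0 (3109 to 3257), 3270 at D5 (3137 to 3406) and 749 at D19 (684 to 819). D0 and D5 did not differ beyond counting error and D19 was below both. Prf1 (perforin, chr10:61297751-61304684), which forms the pore, stood at 428, 331 and 69.2 CPM, and Gzmb, another granzyme, at 374, 359 and 84.6. In log2, D19 against D0 was -2.07 for Gzma, -2.02 for Gzmb and -2.47 for Prf1. Nkg7, a granule membrane protein needed for degranulation, stood at 2280, 1546 and 800 CPM and was past 1.5-fold lower at D19 than at either earlier day. The other members past 1.5-fold at D19 were Gzmm, with 61, 8 and 2 UMIs, and Fasl, a death ligand, with 182, 163 and 98.5 CPM.

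The remaining granule genes were not past 1.5-fold at D19. Ctsw, a granule-associated protease, stood at 575, 504 and 409 CPM. Serpinb9, which shields a killer cell from its own granzyme B, stood at 248, 350 and 251 and Srgn, the granule proteoglycan, at 1153, 952 and 1037. At D5 against D0, 1 of 12 genes of this group was lower (Gzmm) and 0 higher, with a median of -0.17. At D19 against D5, 5 of 11 were lower, with a median of -0.46.

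Fewer D19 cells held a Gzma UMI at equal depth. After thinning each cell to 1000 UMIs, 190 of 380, 56 of 112 and 40 of 141 NK cells held a Gzma UMI, 19.2%, 17.9% and 6.38% a Gzmb UMI and 32.4%, 21.4% and 9.22% a Prf1 UMI. B cells, which should lack them, held Gzma in 0.198%, 0.0324% and 0.0511%. Before thinning 56.6%, 54.5% and 36.9% of NK cells held a Gzma UMI at median depths of 4953, 5307.5 and 3728 UMIs, against 3349, 3871 and 2079.5 in B cells. The summed level and the share of cells were thus lower together. No single NK cell held more than 8.12% of the Gzma UMIs of its library.

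Gzma and Prf1 stood far lower in T and B cells of the same libraries. In cytotoxic T cells (at least 2 Cd3 UMIs and at least 3 UMIs of Ccl5 and Nkg7), Gzma stood at 61.2, 4.35 and 24.0 CPM and Prf1 at 50.5, 35.5 and 18.98. Their log2 change at D19 against D0 was -1.07 for Gzma and -1.06 for Prf1, and 5 of 13 compared killing genes were lower there and 2 higher. Of all genes compared in those T cells 4.88% were lower and 5.14% higher. Nkg7, which helped to choose those T cells, stood at 845, 630 and 395 CPM in them, and after thinning 55.3%, 44.1% and 36.9% of them held an Nkg7 UMI, against 323 of 380 NK cells at D0, 69.6% at D5 and 61.0% at D19. In B cells the change of Gzma and Prf1 was 0.35 and 0.11 at levels below 10 CPM, and in free RNA (barcodes with 10 to 100 UMIs) -0.39 and -1.19. When the NK rule asked for 2 Ncr1 UMIs and 2 of Klre1 or Klrb1c, the change in NK cells was -2.30 for Gzma and -2.72 for Prf1. It was -2.22 and -2.51 when cells above the median of B cell, myeloid and stromal transcripts were left out.

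**Figure D2:**
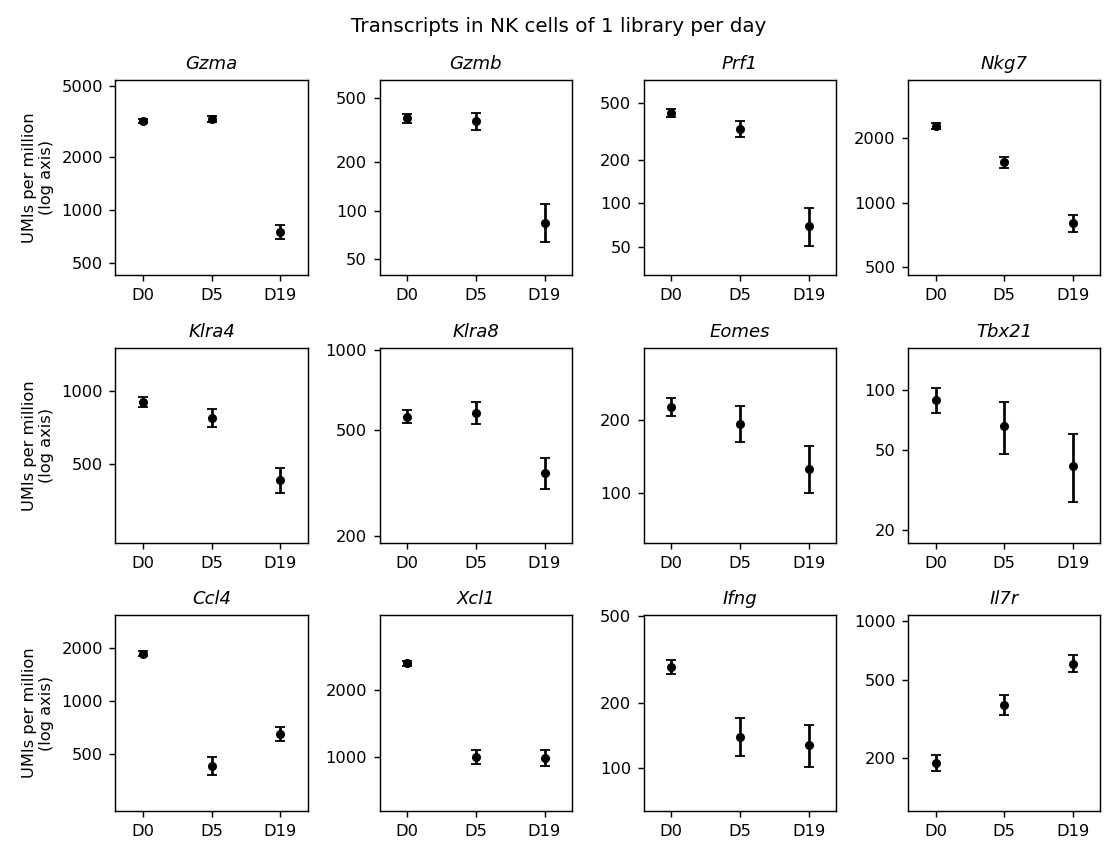
Levels of 12 transcripts in NK cells of the D0, D5 and D19 libraries, in CPM on log axes that differ between panels, with exact 95% intervals of counting error. Gzma, Gzmb, Prf1, the Ly49 genes Klra4 and Klra8, Eomes and Tbx21 are lowest at D19, Ccl4, Xcl1 and Ifng are already lower at D5, and Il7r is highest at D19.

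Receptors of the Ly49 family were lower at D19 together. These lectin-like receptors, most of them inhibitory, read class I major histocompatibility molecules, and their genes (Klra) are so alike that a read may be assigned to a wrong member. Of 10 found in the files (11 listed), 6 were compared, and all 6 were past 1.5-fold lower at D19 than at D0, with a median of -0.75. Klra4 (Ly49D) stood at 901, 773 and 429 CPM, and Klra8 (Ly49H) at 561, 581 and 343. Klra7 (Ly49G) stood at 429, 459 and 254 CPM, and Klra3 (Ly49C) at 161, 127 and 66.2. None was past 1.5-fold at D5 against D0. In cytotoxic T cells 2 of 7 compared Ly49 genes were lower at D19 than at D0, at levels such as 4.17, 2.17 and 3.56 CPM for Klra4. Of all genes compared there 4.88% were lower.

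Lectin-like receptors outside the Ly49 family and the rule were mostly not past 1.5-fold. Of 11 compared genes of CD94, NKG2, NKR-P1, KLRI and KLRG1, 1 was higher at D19 than at D0 (Klrb1a, 175, 203 and 285 CPM) and 1 lower (Klrg1, 57, 8 and 4 UMIs), with a median of 0.12. Klrk1 (NKG2D), which binds stress ligands, stood at 791, 897 and 674 CPM. Klrc1 (NKG2A), the inhibitory partner of CD94, stood at 232, 240 and 252. The genes of the rule itself are given only as a description. Ncr1 (NKp46) stood at 684, 706 and 560 CPM, Klrb1c (NK1.1) at 505, 676 and 572, and Klre1, another lectin-like receptor, at 870, 689 and 288, a log2 change of -1.56 at D19 against D0. A Klre1 UMI was in 56.8%, 50.9% and 23.4% of NK cells after thinning, and a Klrb1c UMI in 44.2%, 50.9% and 53.2%. Without thinning 344 of 380, 96 of 112 and 78 of 141 NK cells held Klre1, and 340, 104 and 133 held Klrb1c.

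Genes of mature, CD11b-high NK cells were lower at D19. Of 12 compared (14 listed), 10 were past 1.5-fold lower than at D0 and 1 higher, with a median of -1.12. Lgals1 (galectin 1) stood at 783, 566 and 220 CPM. Irf8, a transcription factor that takes part in NK cell responses to virus, stood at 421, 227 and 95.4, and Klf2, which holds lymphocytes in a resting, recirculating state, at 1323, 578 and 334. Cma1, a chymase gene, had 77, 16 and 2 UMIs, and S1pr5, the receptor by which NK cells leave the LN, 71, 18 and 6. Ly6c2 was the member that was higher, with 120, 89.9 and 197 CPM. Other cells shared a part of this: 3 of 11 of these genes were lower in cytotoxic T cells, 6 of 10 in other T cells (median -0.64), 2 of 10 in B cells and 5 of 8 in free RNA (median -0.75). Of all genes compared there 4.88%, 6.38%, 4.60% and 11.6% were lower. The group of immature NK cell genes had 5 of 14 lower and 2 higher at D19 than at D0, with a median of -0.31. Its higher members were Il7r and Slamf6, and the lower ones were Cd27 (126, 104 and 66.2 CPM), Xcl1, Thy1, Cxcr3 and Ifitm10. Of the immature genes, 7 of 14 were lower and 1 higher in cytotoxic T cells, where 4.88% of all genes were lower and 5.14% higher.

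Transcription factors of the lineage were lower in part. Of 19 compared, 6 were past 1.5-fold lower at D19 than at D0 and 0 higher, with a median of -0.35. Tbx21 (T-bet, chr11:97098007-97115331) stood at 88.7 (76.9 to 102), 65.6 (48.0 to 87.5) and 41.5 CPM (27.4 to 60.4), and Eomes at 225, 193 and 126. Neighbouring days of Tbx21 overlapped in their intervals, and D0 and D19 did not. Runx1 stood at 86.9, 54.2 and 26.2 CPM, whereas Runx3 stood at 279, 240 and 203. Nfil3 and Irf8 were lower too, and Zeb2 stood at 83.4, 107 and 50.8. Id2, which blocks the path to B and T cells, stood at 686, 1013 and 903 CPM and was not past 1.5-fold at D19.

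Homing and adhesion genes were lower in part. Of 21 compared, 11 were lower at D19 than at D0 and 1 higher, with a median of -0.61, and 7 of 19 were lower without the cells above the median of other cells' transcripts. Of the same genes, 7 of 21 were lower in cytotoxic T cells, in other T cells 7 of 18, in B cells 4 of 18 and in free RNA 6 of 18, where 4.88%, 6.38%, 4.60% and 11.6% of all genes were. Cxcr3, a receptor for interferon-induced chemokines, stood at 83.4, 79.9 and 36.9 CPM, and Ccr2, a receptor for the monocyte chemokine, at 300, 287 and 169. Both chemokine receptors were level at D0 and D5 and lower at D19. Cd69, a marker of recent activation that holds cells in the tissue, was lower at each step with 275, 161 and 92.3 CPM, and Itgb7, an integrin chain of gut homing, stood at 129, 106 and 46.2. Ccr7 was the higher member with 194, 138 and 389 CPM, but it stood at 23.0, 14.4 and 10.3 when cells above the median of other cells' transcripts were left out.

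Cytokine transcripts were lower already at D5. Of 11 compared (14 listed), 7 were past 1.5-fold lower at D5 than at D0 and 0 higher, with a median of -0.80. Without cells above the median of other cells' transcripts 4 of 9 were lower, with a median of -0.56. With 50 CPM added it was 4 of 11, with a median of -0.39. At D19, 5 of 11 were lower than at D0, and against D5 0 of 8 were lower and 1 higher. Ccl4, a chemokine that draws T cells and monocytes, stood at 1853 CPM at D0 (1797 to 1910), 425 at D5 (378 to 476) and 648 at D19 (587 to 713). Xcl1, which attracts cross-presenting dendritic cells, stood at 2637, 997 and 986 CPM, and Ccl3 at 662, 158 and 222. Ifng (interferon gamma) stood at 292, 140 and 128 CPM. Tnf and Csf2 were low, with 73 and 56 UMIs at D0, 9 and 7 at D5, and 14 and 6 at D19. Ccl5, which NK cells hold at a steady high level, did not follow.

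These lower cytokines were partly shared by other cells. Ccl4 changed by -2.10 log2 at D5 against D0 in NK cells, -1.87 in cytotoxic T cells, -1.57 in B cells and -1.94 in free RNA. Xcl1 changed by -1.39 in NK cells, -1.02 in cytotoxic T cells and -0.58 in free RNA. In cytotoxic T cells 5 of 12 compared cytokine genes were lower at D5 (0.939% of all genes there), and in B cells 2 of 13 (1.11%). The share of NK cells with an Xcl1 UMI after thinning was 45.5% at D5 and 41.1% at D19, with 285 of 380 cells at D0, against 0.544%, 0.324% and 0.204% of B cells. For Ccl4 it was 43.2%, 25.0% and 26.2%, against 5.94%, 2.56% and 4.49% of B cells.

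Receptor signalling genes showed a mixed pattern. Of 18 activating receptors and adaptors compared, 7 were lower at D19 than at D0 and 1 higher, with a median of -0.37. Lck, the kinase that starts signalling from receptor chains, stood at 231, 185 and 72.3 CPM, Cd247 (CD3 zeta) at 79.8, 54.2 and 29.2, and Cd2, an adhesion receptor, at 283, 245 and 123. Hcst (DAP10), the adaptor of NKG2D, stood at 723, 712 and 851. Slamf6, a receptor of the SLAM family, was the higher member with 16.9, 32.8 and 52.3 CPM. Among checkpoint receptors, 2 of 7 compared were lower at D19, Klrg1 and Lag3 (42, 6 and 2 UMIs), and Ctla4 was higher with 47, 26 and 29 UMIs.

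The count of type I interferon genes lower at D19 was near the share of all genes. Of 18 compared genes of that response, 4 were lower at D5 than at D0 (4.87% of all genes). At D19, 4 were lower (17.5% of all genes), and 0 were higher at either day. The medians were -0.03 and -0.37, against 0.03 and -0.15 for all genes. Without the highest doublet scores 3 were higher and 3 lower at D5. Without cells above the median of other cells' transcripts it was 1 and 1 of 11. In B cells 9 of 22 were lower at D5 (1.11% of all genes there) and 16 of 22 at D19 (4.60%). In cytotoxic T cells 6 and 7 of 22 were lower (0.939% and 4.88% of all genes there), and in other T cells 5 of 21 at both days (1.27% and 6.38%). Whether these populations differed was not tested. Isg15, a ubiquitin-like protein, stood at 67.9, 21.4 and 66.2 CPM, but 55.8% of its D19 UMIs lay in 1 cell. Bst2 (tetherin) stood at 177, 59.9 and 47.7 CPM. Of 14 compared genes of the interferon gamma response, 5 were lower at D19 than at D0 and 0 higher, among them H2-K1 and H2-D1, which encode class I molecules, with 2675, 2023 and 1442 and with 2938, 2198 and 1634 CPM.

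Some genes of survival and rest were higher. Among 15 compared cytokine receptor genes 4 were higher and 3 lower at D19 than at D0, with a median of 0.01. Il7r, the interleukin 7 receptor chain of ILC1, T cells and immature NK cells, stood at 189 CPM at D0 (171 to 208), 374 at D5 (330 to 422) and 608 at D19 (549 to 671), with intervals that did not overlap. The share of NK cells with an Il7r UMI after thinning was 11.1%, 18.8% and 34.0%. The others that were higher were Il18r1 (116, 171 and 195 CPM), Il15ra and Tgfbr1. The lower ones were Il2rb (652, 646 and 422 CPM) and Il2rg (366, 278 and 208), chains of the interleukin 2 and 15 receptors, and Ifnar2 (118, 94.2 and 60.01). Of 12 genes of quiescence and cold shock, 6 were higher and 2 lower at D5 than at D0, and 5 higher and 2 lower at D19, with medians of 0.51 and 0.47. At D5, 4 of 11 were higher without cells above the median of other cells' transcripts (median 0.28), and 3 of 12 with 50 CPM added. In cytotoxic T, other T and B cells 3, 5 and 4 of 12 were higher at D19 and 2, 3 and 2 lower. Of all genes there 5.14%, 2.45% and 3.51% were higher and 4.88%, 6.38% and 4.60% lower. Txnip, which restrains glucose uptake, stood at 91.4, 257 and 262 CPM, Rbm3, a cold-induced RNA binding protein, at 443, 815 and 1105, and Bcl2, which protects from apoptosis, at 259, 395 and 403. Klf2 and Klf6 were the lower members. Of 12 ILC1 genes, 2 were higher at D19 than at D0, Il7r and Tmem176a (143, 265 and 228 CPM), and 0 lower. The median of the 12 was 0.30, against -0.15 for all genes. Itga1 (CD49a) stood at 20.8, 25.7 and 27.7 CPM. Whether ILC1 took part in these changes was not tested.

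Heat shock and immediate early genes were lower in the NK cells and in every other population examined. All 12 heat shock genes were lower at D19 than at D0 and 10 at D5, with medians of -1.66 and -0.91. Hspa1a (HSP70) had 831, 19 and 0 UMIs, or 369 and 27.1 CPM and a D19 level at least 79.9-fold below D0 at a floor of 3 counts for the library. Hspa8 stood at 1879, 971 and 517 CPM. In cytotoxic T cells, other T cells, B cells and free RNA all 12 were lower at D19 than at D0 too, with medians of -1.55, -1.44, -1.71 and -1.84. Of all genes compared there 4.88%, 6.38%, 4.60% and 11.6% were lower. Of 17 compared immediate early genes, 14 were lower in NK cells at D19 than at D0 and 12 at D5, with medians of -1.01 and -0.78. Jun stood at 1266, 625 and 222 CPM and Fos at 1491, 773 and 577. Of 18 compared in B cells, 9 were lower at each of these days, beside 4.60% of all genes there at D19 and 1.11% at D5. These genes are known to be induced while tissue is digested, and whether that differed between the libraries was not tested.

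Genes called lower in NK cells were in part lower in other cells. Of the 1240 called lower at D19 than at D0, 1224 could also be compared in cytotoxic T cells and 303 of these (24.8%) were past 1.5-fold there, which was 62.6% of the genes lower in those T cells. Of all 9913 genes compared in those T cells 484 were lower (4.88%). In B cells it was 276 of 1188 (23.2%), or 59.1% of the B cell list, where 467 of all 10158 genes were lower (4.60%). The rises were shared in part as well. Of those called at D19 against D0, 156 of 358 were past 1.5-fold higher in cytotoxic T cells (43.6%), where 5.14% of all genes were. In B cells it was 118 of 356 (33.1%), where 3.51% of all genes were higher. Rbm3 changed by 1.30 log2 in NK cells at D19 against D0 and by 1.39 in B cells, and Il7r by 1.63 in NK cells, 0.92 in cytotoxic T cells and 1.02 in free RNA. Klra4 changed by -1.05 in NK cells, -0.06 in cytotoxic T cells and 0.05 in free RNA. Of the Ly49 genes compared, 2 of 7 were lower and 0 higher in cytotoxic T cells. In free RNA 2 of 5 were lower and 0 higher, where 11.6% of all genes were lower. Whether a change was particular to NK cells was not tested.

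**Figure D3:**
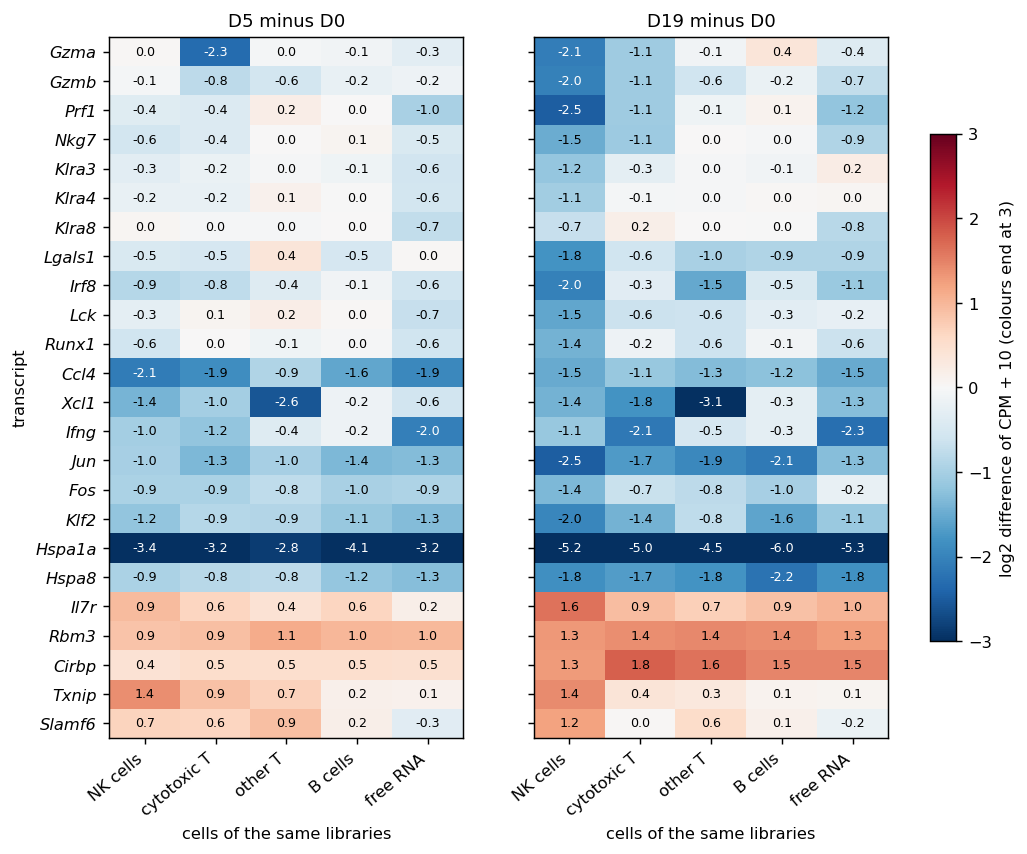
Difference in log2 of CPM + 10 against D0 for 24 transcripts in NK cells, cytotoxic T cells, other T cells, B cells and free RNA of the same libraries, at D5 (left) and D19 (right); colours end at 3. Hspa1a, Jun and Rbm3 changed in each column, whereas Klra3, Klra4 and Klra8 were at -0.69 to -1.16 in NK cells and -0.30 to 0.17 in cytotoxic T cells at D19, in which they stood below 10 CPM. Of all 7 Ly49 genes compared in those T cells, 2 were past 1.5-fold lower at D19 and 0 higher.

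Several of the steepest changes came from few cells. The 4 hemoglobin genes Hba-a1, Hba-a2, Hbb-bs and Hbb-bt led the rises at D19 with 8340 UMIs in all against 206 at D0 and 102 at D5, and 98.8% of the 8340 lay in 1 of 141 cells. Ly6d and Siglech, transcripts of plasmacytoid dendritic cells, stood at 118 and 42.1 CPM at D0, in 26 and 11 of 380 cells. Both had 0 UMIs at D19, at least 25.7-fold and 9.13-fold below D0. Ccl17 and Cd200, both made by mature dendritic cells, stood at 73.9 and 108 CPM at D19, in 9 and 12 cells, and at 0 and 3.43 CPM without cells above the median of other cells' transcripts. Lyz2, of myeloid cells, was the 4th largest rise at D5 with 43.9, 197 and 72.3 CPM, and 89.9% of its D5 UMIs lay in 1 cell. Under the stricter rule it stood at 45.6 and 19.7 CPM at D0 and D5. Hist1h1b and Hist1h3c, histone genes of dividing cells, were higher at D5 with 96.4% and 96.6% of their D5 UMIs in 1 cell.

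Other steep changes were spread over the cells. Gm42418, a gene model that overlaps a ribosomal RNA repeat, stood at 6535, 28119 and 1157 CPM and Lars2 at 158, 502 and 46.2, in 102 of 112 cells at D5. Atf3, a stress-induced factor, stood at 301, 29.96 and 18.5 CPM, and Dnajb1, a partner of HSP70, at 267, 57.1 and 49.2. After thinning, 5 of 380, 1 of 112 and 1 of 141 NK cells (1.32%, 0.893% and 0.709%) held at least 2 of 10 cell cycle genes. The intervals of these shares overlapped, and before thinning the shares were 3.16%, 1.79% and 2.84%. In B cells the shares after thinning were 0.297%, 0.194% and 0.562%. Markers of other cells were present in part. C1qa, S100a9 and Col1a1 had 0 UMIs in NK cells of every library, but Cd74, of antigen-presenting cells, stood at 1952, 1651 and 1303 CPM. Summed over the 19 listed genes of dendritic and myeloid cells the level was 4257, 3939 and 3310 CPM, and over the 10 of B cells 259.5, 247 and 103. Of the 9 dendritic and myeloid genes compared, 4 were higher and 2 lower at D19 than at D0. Without the cells above the median of other cells' transcripts, 1 of them could be compared, and 7 of 11 killing genes, all 6 Ly49 genes and 10 of 12 mature genes were lower at D19 than at D0, beside 1209 of all 4554 genes compared.

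Of the panel of 11 tags, CD11b was counted on NK cells above its level on B cells. The median CD11b tag count per NK cell was 45 UMIs at D0 (quartiles 10 to 151), 84.5 at D5 (23.25 to 278.5) and 17 at D19 (6 to 45), against 6, 6 and 3 on B cells. Taken as the centred log ratio of the tags within a cell, 52.1%, 61.6% and 31.9% of NK cells lay above the 95th percentile of B cells of their library, and by UMIs as counted 33.9%, 49.1% and 15.6%. Among NK cells those of D19 had the lowest CD11b by both measures. By UMIs as counted 24.8% of cytotoxic T cells at D19 lay above the B cell limit, more than of NK cells, with a median of 5 UMIs (quartiles 1 to 80), and 16.8% did by centred log ratio. Of those T cells 13.4% were among the highest doublet scores, against 4.44% at D0 and 3.72% at D5, and 14.5%, 12.9% and 11.3% lay above the B cell limit for the tags CD301b, XCR1 and CD80 by UMIs as counted. The part of these cells in the CD11b share was not tested. The median total of tags was also lowest at D19, with 104, 163.5 and 52 UMIs per NK cell. Itgam, the gene of CD11b, stood at 39.0, 37.1 and 21.5 CPM. CD8a had a median of 17, 18 and 8 UMIs on NK cells against 1386, 1919 and 847.5 on cytotoxic T cells. CX3CR1 and CD115 had medians of 1 or 2 UMIs.

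**Figure D4:**
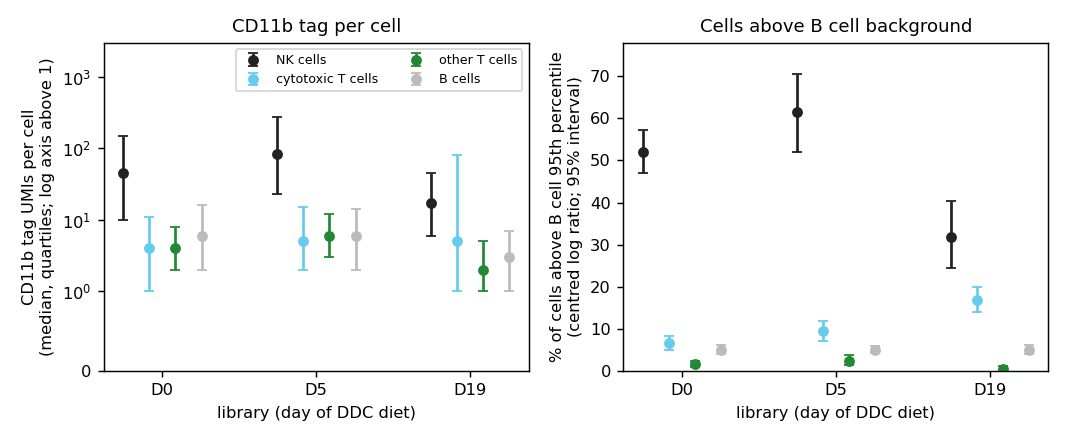
CD11b tag on NK, cytotoxic T, other T and B cells of each library: left, median and quartiles of UMIs per cell on an axis that is linear up to 1 and logarithmic above; right, percent of cells above the 95th percentile of B cells by centred log ratio, with exact 95% intervals. By centred log ratio NK cells are the highest in each library (52.1%, 61.6% and 31.9%) and lowest among themselves at D19, whereas the upper quartile of UMIs at D19 is higher on cytotoxic T cells (80) than on NK cells (45).

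Because protein was not used to choose the cells, CD11b allowed a test that the days did not. In each library NK cells were ranked by the CD11b centred log ratio, and the RNA of the highest tertile (CD11b-high) was summed against that of the lowest (CD11b-low), with 126 cells on each side at D0, 37 at D5 and 47 at D19. The 3 libraries then served as replicates of the split, whatever their day (edgeR quasi-likelihood test, library as a block, Benjamini-Hochberg adjustment over all genes tested). The median CD11b tag count was 202, 368 and 74 UMIs in the high cells and 5, 11 and 4 in the low cells. The split is a range and not a pair of types: 87, 31 and 44 cells lay within 0.25 of a boundary on the log ratio scale.

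Of 3742 genes, 57 were higher in CD11b-high NK cells (1.52%) and 69 lower (1.84%). All 57 were higher in each of the 3 libraries, and 68 of the 69 were lower in each, by any margin. The test used these same 3 libraries, so this describes the calls and is no further support for them. Gzma was higher by 2.90 log2 (SE 0.12, adjusted p = 1.2e-09), with 7275 against 1095 CPM at D0, 6785 against 918 at D5 and 1384 against 125 at D19. The lowest level of CD11b-high cells, at D19, lay above the highest of CD11b-low cells, at D0. Gzmb was higher by 3.47 log2 (SE 0.35, adjusted p = 0.0021), with 954 against 61.0, 914 against 72.1 and 137 against 45.0 CPM. Prf1 was higher by 1.54 log2 (SE 0.22, adjusted p = 4.4e-04), with 821 against 218 at D0, 572 against 188 at D5, and 52.29 against 50.04 at D19. It did not pass when cells were split at the 95th percentile of B cells (0.93 log2, adjusted p = 0.66, from 9.7e-19 to 0.995 over the alternatives). At D19 the Prf1 levels of high and low cells were thus alike, and whether the libraries differed in this was not tested. For Gzma and Prf1, the high and the low tertile of D19 each stood below the tertile of the same rank at D0 and D5. The tertiles were cut within each library, so they do not hold cells of equal CD11b. The median log ratio of the high tertile was 3.79, 4.02 and 2.83 at D0, D5 and D19, and of the low tertile 0.63, 1.06 and 0.42. Levels at equal CD11b were not compared between days.

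Genes of NK cell maturation followed the protein. Of 10 tested genes of mature NK cells, 7 were higher in CD11b-high cells and 0 lower (Itgam, Zeb2, S1pr5, Cma1, Gzmb, Lgals1 and Ly6c2), with a median of 1.63 log2 against -0.01 for all genes. Itgam encodes CD11b itself, so it is not independent of the split, though it is counted among the 7 and in the median. It was higher by 6.32 log2, with 108 against 1.30, 82.3 against 0 and 52.3 against 0 CPM. Lgals1 was higher by 1.98 log2 (SE 0.20, adjusted p = 2.0e-05), with 1379 against 391, 1083 against 164 and 358 against 125 CPM. Under the stricter rule for NK cells the difference was 1.93 and did not pass (adjusted p = 0.084, from 2.2e-35 to 0.52 over the alternatives). Zeb2, a transcription factor of terminal maturation, was higher by 1.42 (adjusted p = 0.0024). S100a6, a calcium binding protein, and Anxa2, an annexin of membranes, were higher by 1.36 and 0.96. Of 10 tested killing genes 5 were higher, the granule genes above with Serpinb9 and Fasl.

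CD11b-low NK cells carried more of some genes of immature cells. Of 14 tested, 7 were lower in CD11b-high cells and 0 higher (Cd27, Emb, Ltb, Tcf7, Cd160, Il7r and Kit), with a median of -0.94. Of 5 tested T cell genes, 2 were lower in CD11b-high cells too (Trbc1 and Trbc2) and 0 higher, with a median of -0.52. Of 8 tested ILC1 genes, 2 were lower (Il7r and Inpp4b) and 0 higher, with a median of -0.46. Whether T cells or ILC1 were among the CD11b-low cells was not tested. Kit, the receptor for stem cell factor, changed by -2.004 log2 from CD11b-low to CD11b-high cells (SE 0.26, adjusted p = 1.2e-05), with 29.9 against 125, 52.0 against 176 and 40.2 against 165 CPM. Cd7, a receptor of early lymphocytes and the first of the list, changed by -1.32 (SE 0.15, adjusted p = 1.5e-06), with 399 against 1130, 386 against 826 and 257 against 585 CPM. Tcf7 (TCF-1), a transcription factor of early NK cells, changed by -1.07 (adjusted p = 0.0018), Ltb (lymphotoxin beta) by -1.07 and Il7r by -0.87. Nrgn and Prss2 changed by -1.75 and -4.14. Prss2 did not pass when cells were split at the median (-1.47) or ranked by CD11b UMIs as counted (-2.46). Of the 69 lower genes, 22 encoded ribosomal proteins and 8 lay on the mitochondrial genome, such as Rps20 (-0.49), Rplp1 (-0.44), mt-Atp6 (-0.49) and mt-Co3 (-0.45).

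Several groups and genes that were lower at D19 were not called in the CD11b split. Of the 6 tested Ly49 genes and the 12 heat shock genes, 0 passed in either direction at an adjusted p of 0.05. Eomes differed by -0.25 (adjusted p = 0.80), Tbx21 by 0.51 (adjusted p = 0.54) and Nkg7 by 0.28 (adjusted p = 0.33). A p above the threshold does not show equal levels.

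Some CD11b-high cells carried transcripts of dendritic or myeloid cells. Of 7 tested genes of those cells, 3 were higher (Lyz2, Ccl22 and Fscn1), and Lyz2 led the list with 5.58 log2 (SE 0.40, adjusted p = 1.2e-09). With the UMIs of all cells of a tertile summed, B cell, myeloid and stromal transcripts stood at 5978, 8787 and 8068 CPM in the high cells. In the low cells they stood at 3555, 3190 and 470, and cells with more UMIs weigh more in such a sum. The medians of single cells were 392, 593 and 536 CPM in the high cells and 530, 674 and 246 in the low cells. High cells were thus below low cells at D0 and D5 by the median. Without the cells above the median of those transcripts, Gzma was higher by 2.66 log2, Prf1 by 1.97 and Lgals1 by 1.95, and Cd7 and Kit differed by -1.63 and -2.80, all still past the threshold, whereas Rplp1 did not pass (-0.35) and Lyz2, Cma1 and Prss2 were too low to be tested. Cells with the highest doublet scores numbered 5, 3 and 8 on the CD11b-high side and 6, 1 and 1 on the CD11b-low side. Split at the median, split at the B cell limit or ranked by CD11b UMIs as counted, the difference was 1.83 to 2.15 log2 for Gzma and -1.24 to -1.42 for Kit, all still past the threshold. Without the library as a block 2 genes were higher and 1 lower, and Gzma, Prf1 and Lgals1 did not pass, with differences of 2.79, 1.56 and 1.94 log2 that were about as large as with it.

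**Figure D5:**
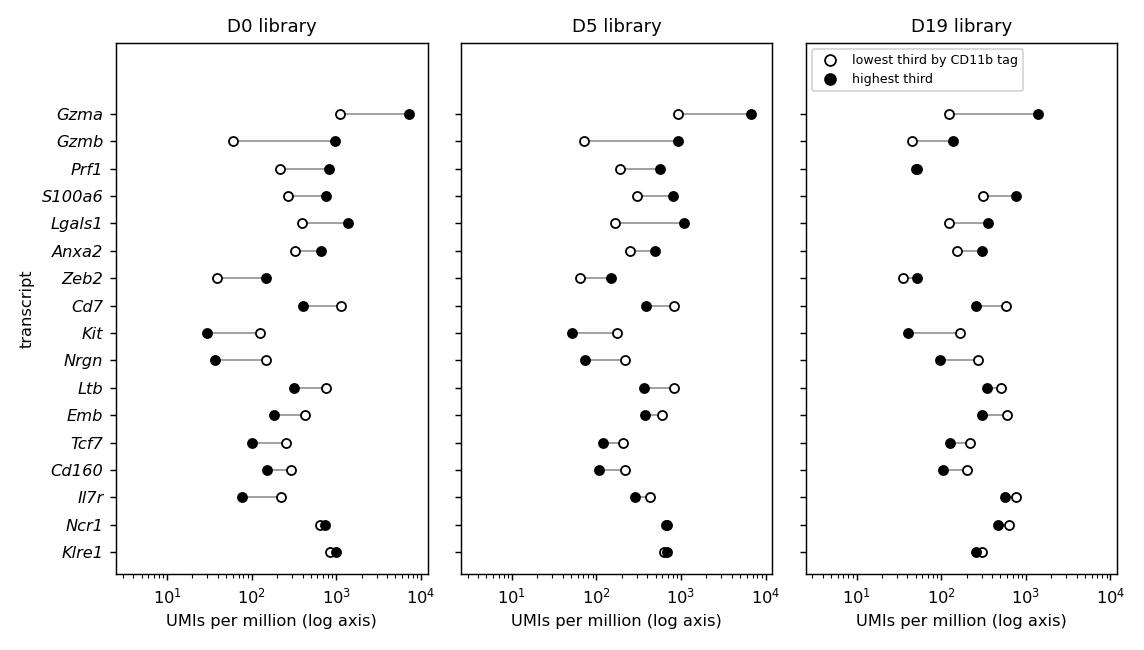
Levels of 17 transcripts, in CPM on a log axis, in the tertile of NK cells with the lowest (open) and the highest (filled) CD11b tag in the D0, D5 and D19 libraries. Gzma, Gzmb, S100a6, Lgals1, Anxa2 and Zeb2 lie to the right in the CD11b-high cells of each library, Cd7, Kit, Nrgn, Ltb, Emb, Tcf7, Cd160 and Il7r to the left, and Prf1 is at 52.29 and 50.04 CPM at D19.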

How the data were processed

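LN cells had been read as RNA and as 11 antibody tags in 3 CITE-seq libraries. Per the file headers and labels, Cell Ranger 4 had mapped the reads to mm10, and the authors deposited UMI counts of all barcodes for 32285 genes and the tags, not normalized. The RNA counts were summed over NK cells per library and divided by all their RNA UMIs (CPM), and 10 CPM was added before log2. The members and gene lists were chosen with earlier results of these data known. Genes were named by rule: per pair of days the 8 largest rises and the 8 largest falls, without mitochondrial, ribosomal, Xist and Tsix genes; in the CD11b split the 10 lowest adjusted p in each direction; all genes of the rule; and examples of each list. A change past 1.5-fold with 30 UMIs over 2 libraries was called. Shares and sums carry exact Clopper-Pearson and Poisson intervals.

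The CD11b split was tested in edgeR 4.0.16 (R 4.3.3; glmQLFit and glmQLFTest, TMM, filterByExpr, library as a block, 6 sums, 2 residual degrees of freedom), and the code was tested on simulated data. SE is the log2 difference over the root of F. DESeq2 1.42.0 was an alternative. Doublet scores were from Scrublet in Scanpy 1.11.5. The rule holds no doublet filter: 16, 4 and 9 NK cells were among the highest scores (0.8% per 1000 cells) and were left out as an alternative. Other alternatives changed the UMI and mitochondrial limits, the CPM added, the scaling, the rule and the split. Free RNA was set beside the NK cells and was not corrected for. Libraries of sorted gamma delta T cells were not used here.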

Additional observations from a re-analysis of the deposited data

How the results depend on the processing

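No paired analysis was possible because each day was 1 library; in the CD11b split the library was the block. The share of NK cells was 5.23% at D0 with no Cd3 UMI allowed, 2.49%, 0.864% and 0.666% at D0, D5 and D19 after thinning to 1000 UMIs, and 4.80%, 1.44% and 1.20% with 2 Ncr1 and 2 Klre1 or Klrb1c UMIs, a rule chosen after seeing the data, as was leaving out cells with other cells' transcripts in the CD11b split. Genes higher and lower past 1.5-fold were, at D5 against D0, 911 and 674 with 1 CPM added, 57 and 75 with 50 CPM and 204 and 181 with a minimum of 100 UMIs, and with TMM 326 were higher. At D19 against D5 they were 63 and 191 with 50 CPM, 70 and 268 with 100 UMIs and 401 and 442 with TMM. At D19 against D0 they were 87 and 293 with 50 CPM and 159 and 687 with 100 UMIs, and 644 were higher with 1 CPM and 235 without cells above the median of other cells' transcripts. Lower cytokine genes at D5 were 4 without those cells and 4 with 50 CPM, and lower mature genes at D19 were 5 with 50 CPM. By centred log ratio in place of UMIs, 52.1%, 61.6% and 31.9% of NK cells were above the B cell limit for CD11b. In the CD11b split 224 genes were higher and 117 lower with CD11b UMIs as counted, 19 and 22 under the stricter rule, 2 and 1 without the block, and 27 and 18 in DESeq2. The number higher was 124 with no filter on low counts. The number lower was 34 split at the median, 20 split at the B cell limit and 30 without cells of other cells' transcripts. Leaving out each library in turn gave 73 to 98 higher and 28 to 61 lower, with 98 and 58 without D0, 73 and 28 without D5, and 93 and 61 without D19. Lyz2 at D5 against D0 was -0.91 and Hba-a1 at D19 against D5 -0.42 under the stricter rule. Lgals1 then no longer passed in the CD11b split, at 1.93 log2 against 1.98. The cause of these changes was not tested. Of 497 recomputed values between days, 492 kept their direction and size within the limits set, and of 229 in the CD11b split 208 kept their call and 0 reversed. These values cover only the largest rises and falls per pair of days and the lowest adjusted p of the split. Genes picked as the most extreme are the least likely to drop below a limit. The counts therefore do not show whether the other named genes, such as Klra4 and Tbx21 between days, would hold. Depth limits the D5 and D19 sums, which held 700989 and 649907 RNA UMIs against 2254257 at D0.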
